A study of Mus musculus with 12 samples.

Results

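Photoreceptor phosphodiesterase 6 (PDE6) is described here through its 6 subunit genes, *Pde6a*, *Pde6b*, *Pde6c*, *Pde6d*, *Pde6g* and *Pde6h*. Members were all probe sets annotated with 1 of these symbols alone, which gave 8 of the 45101 probe sets and 6 of 18193 named genes. *Pde6g* and *Pde6h* had 2 probe sets each and the other genes had 1. The data are 12 arrays of whole mouse retina, with 3 independent experiments in each of 4 groups. *Otx2* CKO (conditional knockout) retinas carried Otx2 flox/flox and Crx-Cre+, and control retinas carried Otx2 flox/flox without the transgene (Crx-Cre-), both at P1 (postnatal day 1) and at P12. All 4 groups therefore carried floxed *Otx2* alleles, and Cre was driven by the promoter of *Crx*, a gene active in developing photoreceptors, in a retina that also holds other cell types. How many animals gave the RNA of 1 array is not given in the sources used here, and p values measure the spread between these 3 experiments.

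PDE6 is the effector enzyme of phototransduction. Light-activated transducin releases the inhibitory subunits from the catalytic core, the core hydrolyses cGMP, and the cGMP-gated channels of the outer segment close. Rods build the core from the products of *Pde6a* and *Pde6b* and inhibit it with that of *Pde6g*, cones use *Pde6c* and *Pde6h*, and *Pde6d* encodes a widely expressed prenyl-binding protein that carries lipid-modified proteins through the cytoplasm, PDE6 among them. Mutations in the rod and cone catalytic genes are known causes of retinal degeneration and of loss of cone vision.

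The promoters of 3 of the 6 members are shown because *Otx2* encodes a homeodomain transcription factor, and they come from 1 rod, 1 cone and the shared subunit gene. Each covers 250 bases before to 50 bases after the annotated start (RefSeq, GRCm38.p6) on the strand of the gene. Capitals mark TAATC or its reverse complement GATTA, the core bound by OTX2 and CRX, and TGCTGA or its reverse complement TCAGCA, a half-site of NRL, the rod transcription factor. *Pde6b* lies at chr5:108388123-108388422 on the + strand, *Pde6h* at chr6:136954273-136954572 on the + strand and *Pde6d* at chr1:86582736-86583035 on the - strand.
Pde6b: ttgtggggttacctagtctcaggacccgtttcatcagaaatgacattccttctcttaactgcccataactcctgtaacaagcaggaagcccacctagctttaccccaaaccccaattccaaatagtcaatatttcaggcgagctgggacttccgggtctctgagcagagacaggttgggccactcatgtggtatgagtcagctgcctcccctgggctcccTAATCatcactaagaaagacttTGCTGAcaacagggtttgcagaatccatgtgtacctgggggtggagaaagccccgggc
Pde6h: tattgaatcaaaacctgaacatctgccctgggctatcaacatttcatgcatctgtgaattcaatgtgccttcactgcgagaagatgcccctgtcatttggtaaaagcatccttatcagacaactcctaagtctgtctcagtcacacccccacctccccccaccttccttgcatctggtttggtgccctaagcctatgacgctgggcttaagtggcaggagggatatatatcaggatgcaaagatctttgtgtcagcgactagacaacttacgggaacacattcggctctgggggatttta
Pde6d: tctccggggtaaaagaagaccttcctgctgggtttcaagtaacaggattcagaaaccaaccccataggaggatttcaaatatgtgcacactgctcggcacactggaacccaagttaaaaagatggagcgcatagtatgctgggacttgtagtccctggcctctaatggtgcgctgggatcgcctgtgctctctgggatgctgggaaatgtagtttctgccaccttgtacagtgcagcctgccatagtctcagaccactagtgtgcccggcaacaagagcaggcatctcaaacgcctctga

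The *Pde6b* window held TAATC at -30 to -26 and TGCTGA at -8 to -3, counted from the start with the last base before it as -1. These 2 matches did not overlap. The *Pde6h* and *Pde6d* windows held neither motif on either strand. Of 32851 promoters of this length, 22% held TAATC on either strand and 19.5% held TGCTGA. A match is a description of the letters and was not tested as a binding site.

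Signals are linear intensities determined by the authors, and 1 probe set's signal is not comparable in height with another's. Their 2% trimmed mean was 21.8 to 27.9 in P1 *Otx2* CKO, 28.5 to 30.1 in P1 control, 108 to 172 in P12 *Otx2* CKO and 96.4 to 111 in P12 control arrays, with the highest value in P12 *Otx2* CKO replicate 1. Changes were tested with limma on log2(signal + 16), where the mean signal was at least 50 in a compared group, at a Benjamini-Hochberg adjusted p under 0.05 over all tested probe sets. The median probe set changed by 0.39 on this log2 scale between P12 *Otx2* CKO and P12 control, and by 0.061 to 0.10 under 5 scalings of the arrays. *Otx2* itself was lower in every *Otx2* CKO array at both ages, with log2 changes of -2.44 at P12 (adjusted p = 6.96e-05, limma) and -1.23 at P1 (adjusted p = 0.207, limma); whether its probe set lies in the deleted part is not known here. Cell type markers differed as well. At P12 all 3 rod, 4 cone and 2 bipolar markers with a probe set were lower in *Otx2* CKO, and the summed rod signal was 672 to 1476 in *Otx2* CKO and 17857 to 23737 in control arrays. The summed cone signal was 156 to 247 in P12 *Otx2* CKO and 3067 to 6350 in control arrays. Microglia markers summed to 1424 to 1892 in P12 *Otx2* CKO and 302 to 677 in control arrays, amacrine markers to 6391 to 9344 in *Otx2* CKO and 3281 to 4569 in control arrays, and pigment epithelium markers to 784 to 1597 in *Otx2* CKO and 238 to 379 in control arrays. All 3 microglia, 2 of 5 amacrine and 2 of 3 tested pigment epithelium markers were called higher. Of 3 Muller glia markers 1 was higher (sums of 6658 to 10476 in *Otx2* CKO and 4114 to 8304 in control arrays), and all 4 lens markers stayed under the signal limit. The part of these shifts in the results was not tested. In whole retina, fewer photoreceptors and less RNA in each photoreceptor cannot be told apart.

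Every PDE6 subunit gene was lower in the P12 *Otx2* CKO retina. The rod subunits fell to 2.09% to 3.20% of the control mean signal, the cone subunits to 5.93% to 8.90%, and the shared subunit *Pde6d* to 48.9%. The median signal of P12 *Otx2* CKO replicates 1, 2 and 3 was 56, 25.4 and 32.5. *Pde6a* and *Pde6c* lay below it in each of these arrays, as did *Pde6b* in replicate 3. How much of such low signals is background was not tested. These percentages, and the gap between rod and cone subunits, may therefore not measure remaining transcript. All 8 probe sets passed the test, against 4.54% of the 21390 tested probe sets called lower. All 8 also had every *Otx2* CKO array below every control array, against 5.41% of the tested probe sets.

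Among the rod subunits *Pde6b* had the largest fall. *Pde6b*, which encodes the beta catalytic subunit, had signals of 156.5, 77.2 and 17.6 in the P12 *Otx2* CKO arrays, against 3591, 4802 and 3612 in the P12 control arrays. The groups were far apart, and *Otx2* CKO replicate 3 was the lowest of the 3. The log2 change was -5.61 (SE 0.47, adjusted p = 6.54e-06, limma). *Pde6a*, which encodes the alpha catalytic subunit, had 29.2, 18.1 and 22.2 in *Otx2* CKO, against 359.5, 1076 and 750.1 in control arrays. The *Otx2* CKO arrays lay close together, whereas the control arrays spread 2.99-fold with replicate 1 lowest. Its log2 change was -4.13 (SE 0.32, adjusted p = 2.85e-06, limma).

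*Pde6g*, which encodes the inhibitory subunit of rods, fell with the catalytic genes. Probe set 1425100_a_at had 257.9, 218.8 and 100.9 in P12 *Otx2* CKO, against 4951, 7645 and 5462 in P12 control arrays. Probe set 1450453_a_at had 169.8, 187.6 and 65.0 in *Otx2* CKO, against 3748, 6422 and 4440 in control arrays. In both probe sets *Otx2* CKO replicate 3 was lowest and control replicate 2 was highest. Their log2 changes were -4.92 (SE 0.31, adjusted p = 8.23e-07) and -5.04 (SE 0.34, adjusted p = 1.24e-06), both from limma.

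**Figure D1:**
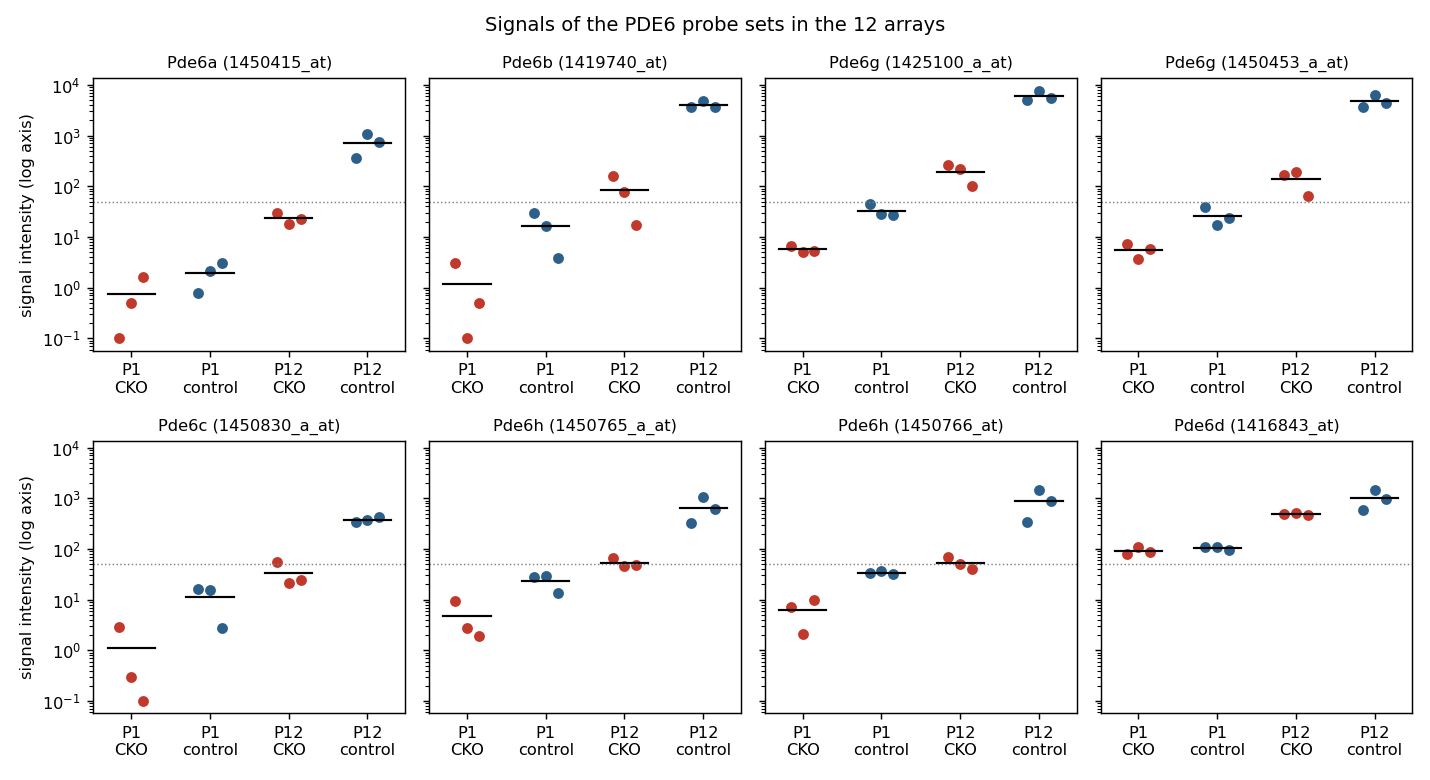
Signal intensity (log axis) of the 8 PDE6 probe sets in the 12 arrays, in the order P1 *Otx2* CKO, P1 control, P12 *Otx2* CKO and P12 control; points are arrays (red *Otx2* CKO, blue control, replicates 1 to 3 from left to right), bars are means of 3 arrays and the dotted line is the signal limit of 50. At P12 the *Otx2* CKO arrays lie below the control arrays in every panel, and at P1 *Pde6d* alone lies above the limit.

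The cone subunits fell as well. *Pde6c*, which encodes the catalytic subunit of cones, had 55.4, 21.7 and 24.5 in P12 *Otx2* CKO, against 338.7, 377.1 and 425.9 in P12 control arrays. Its control arrays were the most even of the family, spreading 1.26-fold, and its *Otx2* CKO replicate 1, which was also the brightest array, stood above the other two. The log2 change was -3.05 (SE 0.28, adjusted p = 1.43e-05, limma). *Pde6h*, which encodes the inhibitory subunit of cones, had 67.9, 50.3 and 40.2 in *Otx2* CKO, against 334.6, 1465 and 871.8 in control arrays on probe set 1450766_at. The control arrays spread 4.38-fold, again with replicate 1 lowest and replicate 2 highest, and did not overlap with *Otx2* CKO. The log2 change was -3.51 (SE 0.40, adjusted p = 8.76e-05, limma). The other probe set, 1450765_a_at, had 65.6, 45.2 and 47.4 in *Otx2* CKO, against 321, 1038 and 608.2 in control arrays (log2 change -3.15, SE 0.36, adjusted p = 7.25e-05, limma).

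*Pde6d* was the one member that kept a large share of its signal. It had 491, 515.6 and 467.1 in P12 *Otx2* CKO, against 599.8, 1430 and 981.8 in P12 control arrays. The *Otx2* CKO arrays differed by 1.10-fold and the control arrays by 2.38-fold, and the groups did not overlap. The log2 change was -0.92 (SE 0.27, adjusted p = 0.0339, limma). This call was lost when any 1 of 9 arrays was left out (P1 control replicates 1, 2 and 3, P1 *Otx2* CKO replicate 3, P12 control replicates 2 and 3, P12 *Otx2* CKO replicates 1, 2 and 3), with adjusted p values up to 0.0988, and without P12 control replicate 2 the log2 change was -0.63 (adjusted p = 0.0591). Under 5 scalings of the arrays it was -1.24 to -1.18, and 4 of the 5 called it (adjusted p = 0.00414 to 0.103). The call was also lost when the P12 groups were fitted without the P1 arrays (adjusted p = 0.221, limma). Without the signal limit it was lost as well (adjusted p = 0.0506, limma).

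**Figure D2:**
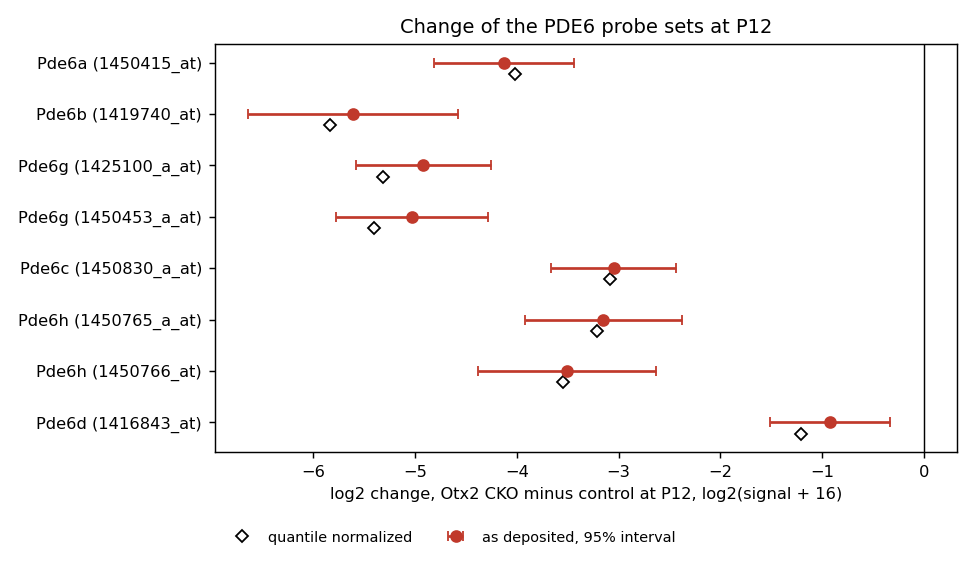
Log2 change (*Otx2* CKO minus control at P12, on log2(signal + 16)) of the 8 PDE6 probe sets, with limma's 95% interval for the signals as deposited (red) and the value after quantile normalization of the 12 arrays (open diamonds). The 4 rod probe sets lie between -5.61 and -4.13, the 3 cone probe sets between -3.51 and -3.05, and *Pde6d* at -0.92.

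Whether the subunits fell by different amounts was asked within each array, where the log2 signal of 1 subunit was subtracted from that of another. The 11 pairs were each rod with each cone subunit and *Pde6d* with each other subunit. In every pair of subunits the *Otx2* CKO arrays did not overlap with the control arrays. The exact permutation test (two-sided) gave p = 0.10, the smallest value that 3 against 3 arrays allow. No pair could therefore pass the threshold (adjusted p = 0.10 over the 11 pairs). The test took the arrays as unpaired, although same-numbered P12 arrays of the 2 genotypes deviated together. *Pde6b* changed by 2.56 log2 units more than *Pde6c*, since the difference of their log2 changes was -2.56. The difference between *Pde6b* and *Pde6h* was -2.10. *Pde6g* differed from *Pde6c* by -1.87 and from *Pde6h* by -1.41, whereas *Pde6a* differed from them by -1.08 and -0.62, the smallest of the 11. *Pde6a* minus *Pde6h* was -0.80 ± 0.22 in *Otx2* CKO and -0.18 ± 0.27 in control arrays (SD, n = 3 each). Against *Pde6d*, the differences were -4.69 for *Pde6b*, -4.00 for *Pde6g*, -3.20 for *Pde6a*, -2.59 for *Pde6h* and -2.12 for *Pde6c*. All 11 kept their sign under each alternative offset or floor and without any 1 P12 array. They share the limit of low *Otx2* CKO signals given above.

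The signal left in single *Otx2* CKO arrays varied by subunit. For *Pde6a* and *Pde6c*, and for *Pde6b* in replicate 3, it was below the median signal of the array and may be background. *Pde6b* was at 3.91%, 1.93% and 0.440% of the control mean in P12 *Otx2* CKO replicates 1, 2 and 3, an 8.89-fold spread. *Pde6g* (1425100_a_at) was at 4.28%, 3.64% and 1.68%, and *Pde6c* at 14.6%, 5.70% and 6.44%. *Pde6d* was at 48.9%, 51.4% and 46.5%. As deposited, the plotted rod and cone markers were all lowest in replicate 3 as well. *Gnat1*, the alpha subunit of rod transducin, was at 6.23%, 4.06% and 1.68%, and *Arr3*, the cone arrestin, at 9.88%, 4.76% and 2.22%. *Pde6a* was lowest in replicate 2 (4.01%, 2.48% and 3.05%). Replicate 1 was also the brightest array, and after quantile normalization within each age *Pde6c* was at 7.61%, 6.61% and 5.94%, while *Pde6b* still stood at 2.25%, 2.11% and 0.440%. With that normalization *Pde6d* was at 30.9%, 49.7% and 46.6%. The cone markers *Gnat2* (4.69%, 9.15% and 6.34%) and *Opn1sw* (2.85%, 6.40% and 3.26%) were then lowest in replicate 1, and the other plotted markers in replicate 3.

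**Figure D3:**
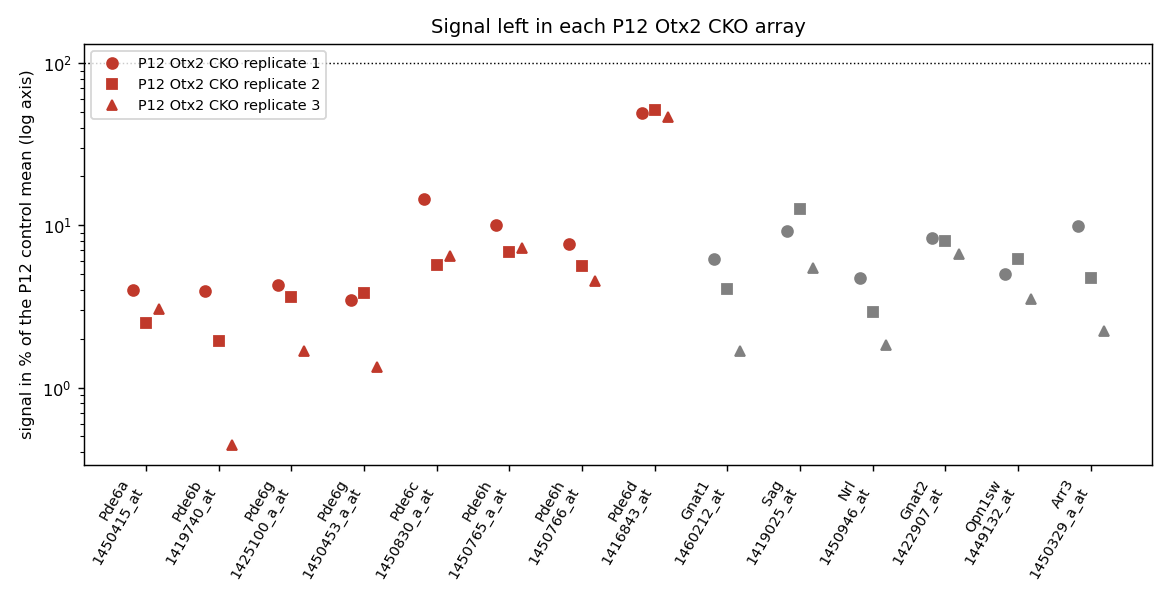
Signal of each P12 *Otx2* CKO array in percent of the P12 control mean (log axis; dotted line, 100%) for the 8 PDE6 probe sets (red) and 6 rod and cone marker genes (grey); circles, squares and triangles are replicates 1, 2 and 3. *Pde6b* ranges between 0.440% and 3.91%, *Pde6d* between 46.5% and 51.4%.

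At P1 the PDE6 genes were near the bottom of the signal range. Apart from *Pde6d*, the signals were 0.1 to 9.7 in P1 *Otx2* CKO and 0.8 to 44.3 in P1 control arrays, so that 7 of the 8 probe sets did not reach the signal limit and 1 was tested. *Pde6d* had 78.1, 110.1 and 87.2 in *Otx2* CKO, against 109, 110 and 96.4 in control arrays. The groups overlapped, and the log2 change was -0.18 (SE 0.28, adjusted p = 0.915, limma), with a value of 0.0057 to 0.11 under the 5 scalings. No member was called, against 0.179% of the 8384 tested probe sets called lower.

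Below the limit, several subunits were nonetheless lower in each P1 *Otx2* CKO array than in each P1 control array. These were *Pde6b*, both probe sets of *Pde6g* and both of *Pde6h*, 5 of the 8 member probe sets, against 10.0% of all 45037 probe sets at any signal. *Pde6g* (1425100_a_at) had 6.6, 5.1 and 5.4 in *Otx2* CKO, against 44.3, 27.8 and 27.1 in control arrays. *Pde6h* (1450766_at) had 7.1, 2.1 and 9.7, against 33.0, 37.0 and 31.6. *Pde6b* had 3.0, 0.1 and 0.5, against 29.3, 16.2 and 3.8, with control replicate 3 close to *Otx2* CKO. *Pde6a* and *Pde6c* overlapped between the genotypes, and *Pde6a* was at 3.0 or less in all 6 arrays. In a fit of all probe sets without the signal limit every member had an adjusted p of 1, against 0.0222% of probe sets called lower, and the unadjusted limma p was 0.00203 and 0.0161 for *Pde6g*, 0.0122 and 0.0221 for *Pde6h*, 0.0453 for *Pde6c*, 0.0985 for *Pde6b* and 0.757 for *Pde6a*. After quantile normalization of the 12 arrays, which raises the P1 signals, 5 members were tested and *Pde6g* (1425100_a_at) was called, with a log2 change of -1.48 (adjusted p = 0.0440, limma) against 0.208% of probe sets called lower.

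On log2(signal + 16), the change was called larger at P12 than at P1 for 7 of the 8 probe sets. Of 21530 tested probe sets, 1.79% had a lower and 3.08% a higher effect at P12. These 7 reached the signal limit at P12 alone, so the offset kept their P1 changes small in advance. In percent of the control mean, *Pde6c* stood at 9.59% at P1 and 8.90% at P12. The others of the 7 stood at 7.30% to 37.3% at P1 and 2.09% to 8.04% at P12, with P1 signals too low for reliable ratios. The difference of the log2 changes was -4.77 for *Pde6b* (adjusted p = 0.00135), -4.03 for *Pde6a* (adjusted p = 3.19e-04), -3.76 and -4.09 for *Pde6g* (adjusted p = 3.74e-04 and 4.66e-04) and -2.40 for *Pde6c* (adjusted p = 0.00450), all from limma. *Pde6h* gave -2.22 and -2.33 (adjusted p = 0.0253 and 0.0363, limma), and these calls were lost under median scaling (adjusted p = 0.174 and 0.203) and without any 1 of 8 arrays (all 6 P1 arrays, P12 control replicate 3 and P12 *Otx2* CKO replicate 3). *Pde6d* gave -0.75 (adjusted p = 0.248, limma). The P1 signals lie near the offset of 16, which shrinks changes there, and with an offset of 1 the calls were those of *Pde6a* and both *Pde6g* probe sets.

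Maturation of the control retina raised every subunit. The P1 control means were under the signal limit of 50 except for *Pde6d*, so the P12 control mean is set against that limit for the other members, which gives a lower bound. It was at least 14.6-fold higher for *Pde6a*, 80.0-fold for *Pde6b*, 120- and 97.4-fold for *Pde6g*, 7.61-fold for *Pde6c* and 13.1- and 17.8-fold for *Pde6h*, and for *Pde6d* the P12 control mean was 9.55-fold the P1 control mean. As deposited, the P12 arrays were brighter throughout, 82.7% of 18560 tested probe sets were called higher and the median log2 change was 1.45. After quantile normalization of the 12 arrays the median was -0.066, and all 8 members were still called higher, against 19.5% of the 17646 tested probe sets. There the log2 changes were 5.89 for *Pde6b*, 5.59 and 5.56 for *Pde6g*, 4.43 for *Pde6a*, 2.75 for *Pde6c*, 2.55 and 2.43 for *Pde6h* and 1.29 for *Pde6d* (adjusted p up to 0.00128, limma). On this normalized log2 scale the rod subunits stood above the cone subunits, and *Pde6d* below both, in the size of the increase. The lower bounds do not give that order. *Pde6a* had at least 14.6-fold against at least 17.8-fold for *Pde6h*, and *Pde6c* at least 7.61-fold against 9.55-fold for *Pde6d*. With P1 signals under the limit, the order of the increases is not settled.

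In the *Otx2* CKO retina the increase with age was smaller on the log2(signal + 16) scale for the 7 probe sets named above. The test of that difference is the comparison of the effects at both ages, and *Pde6d* did not pass it. It is not a second result and shares the limit that the offset sets at P1. *Pde6c* depends on that scale: the ratio of its mean signals, P12 over P1, was 30.8 in *Otx2* CKO and 33.2 in control, but its P1 *Otx2* CKO arrays had 2.9, 0.3 and 0.1, too low for a reliable ratio. As deposited, 6 of 6 tested members were called higher at P12 than at P1, against 96.2% of 20638 probe sets and a median log2 change of 1.85. *Pde6g* changed by 3.17 and 2.75, *Pde6b* by 2.25, *Pde6d* by 2.24 and *Pde6h* by 1.74 and 1.62 on the log2 scale, and *Pde6a* and *Pde6c* did not reach the signal limit. Without P12 *Otx2* CKO replicate 1 the count was 3 of 3 tested. After quantile normalization only the 2 *Pde6g* probe sets of 3 tested members were called, with log2 changes of 1.75 (adjusted p = 3.37e-04, limma) and 1.39 (adjusted p = 0.00537, limma), against 14.2% of probe sets. *Pde6d* then changed by 0.074 (adjusted p = 0.858, limma) in *Otx2* CKO, against 1.29 in control. In the comparison of the effects *Pde6d* had an adjusted p of 0.0763 (limma) after quantile normalization.

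As deposited, each of the 8 probe sets had its means in 1 order, highest in P12 control, then P12 *Otx2* CKO, P1 control and P1 *Otx2* CKO. P12 *Otx2* CKO and P1 control arrays overlapped in *Pde6b*, where P12 *Otx2* CKO replicate 3 (17.6) lay between the P1 control arrays (3.8 to 29.3), and did not overlap in the other 7. This order depended on the scaling between the ages. After quantile normalization of the 12 arrays P12 *Otx2* CKO was below P1 control for the cone subunits, by a log2 difference of -0.33 for *Pde6c* and of -0.67 and -1.12 for *Pde6h*, and overlapped with it in 6 of the 8 probe sets. *Pde6h* was below P1 control under median and spike scaling too (-0.69 and -1.13, and -0.13 and -0.54), and *Pde6c* under median scaling (-0.33) but not under spike scaling (0.089). For *Pde6d* the P12 *Otx2* CKO and P1 control means then differed by 0.080, -0.0078 and 0.78 under quantile, median and spike scaling.

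The list for PDE6 folding, prenylation and transport split into a part that fell at P12 and a part that did not pass the test. It also holds genes of other lipid-modified proteins and their carriers, among them *Unc119*, *Grk1* and *Rab28*. Of 16 listed genes 15 were tested, 5 were lower and none was higher (4.54% and 14.1% of all tested probe sets), with a median log2 change of -0.39 against 0.39 over all tested probe sets. *Aipl1*, which encodes the photoreceptor cochaperone needed for PDE6 folding, had 102.9, 88.7 and 42.4 in P12 *Otx2* CKO, against 1810, 3517 and 2982 in P12 control arrays. The groups did not overlap, and the log2 change was -4.90 (SE 0.30, adjusted p = 8.23e-07, limma). *Icmt*, which encodes the carboxyl methyltransferase of prenylated proteins, had 235.8, 265.1 and 142.3, against 1128, 2450 and 1125 (log2 change -2.72, SE 0.31, adjusted p = 8.37e-05, limma). *Unc119*, a carrier of acylated transducin, changed by -3.21 and *Grk1*, the prenylated rhodopsin kinase, by -2.88, both with no overlap between the groups. *Rab28*, a prenylated small GTPase and PDE6D cargo, changed by -1.32 (adjusted p = 0.00257, limma) and is named because the count is 5. These 5 were called under all of 19 alternative settings. The prenyltransferase genes *Fnta*, *Fntb* and *Pggt1b* (log2 changes 0.32, -0.61 and 0.29), and *Arl2* and *Arl3*, whose products release cargo from PDE6D (0.26 and -0.67), did not pass the test, and were named after their values were seen; *Arl3* was called lower in 6 of the 19 settings. With the replicate number as a block within each age, the list had 7 lower and 1 higher, against 7.26% and 36.3% of all tested probe sets. These counts are a description, since that fit gave very small p values for so few arrays. At P1 *Unc119* was lower, with a log2 change of -1.47 (adjusted p = 0.0101, limma), the 1 of 6 tested list genes that passed, against 0.179% of all tested probe sets called lower.

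Most tested genes on either side of PDE6 in the cascade fell with it. Of 9 tested genes of transducin and its GTPase-activating complex, 8 were lower (4.54% of all tested probe sets) with a median log2 change of -3.44, against 0.39 over all tested probe sets. *Gnat1* averaged 254 ± 145 in P12 *Otx2* CKO and 6370 ± 1545 in P12 control arrays (SD, n = 3 each), a log2 change of -4.70. *Gngt1*, the gamma subunit of rod transducin, changed by -4.50, *Rgs9bp*, the membrane anchor of the GTPase-activating complex, by -4.22 and *Gnb3*, the beta subunit of cone transducin, by -4.18 (adjusted p up to 1.66e-05, limma). *Rgs9*, the catalytic part of that complex, was at 76.5 ± 52.1 in *Otx2* CKO and 58.8 ± 17.8 in control arrays (SD, n = 3 each, adjusted p = 0.681, limma). Of 7 tested genes for cGMP synthesis and cGMP-gated channels, 6 were lower (against the same 4.54%) with a median of -4.37. *Guca1b*, an activator of guanylate cyclase, changed by -4.75, *Cngb1* and *Cnga1*, the rod channel subunits, by -4.74 and -4.37, and *Slc24a1*, the rod sodium-calcium exchanger, by -4.70. *Slc24a2*, its relative in cones, was at 77.7 ± 47.6 in *Otx2* CKO and 77.1 ± 47.2 in control arrays (SD, n = 3 each). Several genes in both groups were known from earlier results of these data to be lower when the lists were drawn up, so that their counts are a description.

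**Figure D4:**
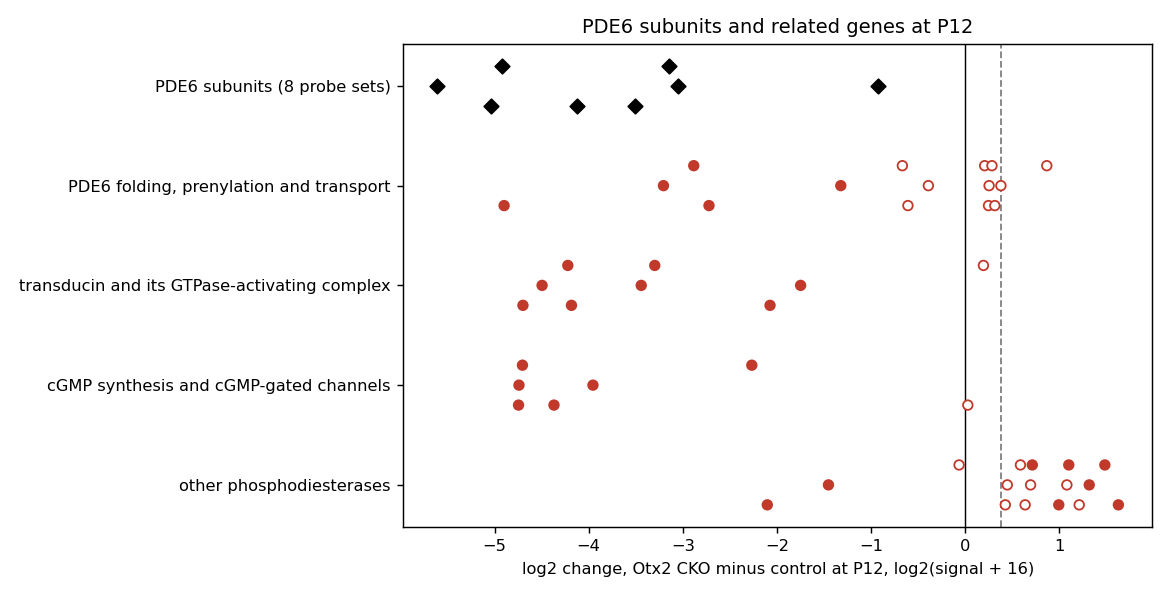
Log2 change at P12 (*Otx2* CKO minus control, on log2(signal + 16)) of the 8 PDE6 probe sets (black diamonds) and of the tested genes in 4 lists (circles, 1 probe set for each gene; filled at a limma adjusted p under 0.05, open otherwise; vertical offsets only separate points); the dashed line is the median of all tested probe sets, 0.39. Tested transducin and cGMP genes lie filled on the left except *Rgs9* and *Slc24a2*, while 6 other phosphodiesterases lie filled on the right. *Gucy2e* (-2.27), *Gnb1* (-2.07) and *Gnb5* (-1.75) lie between the cone subunits and *Pde6d*.

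The other phosphodiesterase genes moved in both directions at P12. Of 16 tested genes 2 were lower and 6 were higher, with a median log2 change of 0.71, against 4.54% lower and 14.1% higher over all tested probe sets (8.46% and 7.93% after quantile normalization). *Pde8b*, a cAMP-specific phosphodiesterase, had 82.7, 63.5 and 63.1 in P12 *Otx2* CKO, against 339.4, 390.6 and 323.9 in P12 control arrays. Its relative *Pde8a* had 52.5, 31.0 and 26.0, against 86.1, 144.3 and 153.2. Both were lower in every *Otx2* CKO array (log2 changes -2.10 and -1.45, adjusted p = 1.04e-05 and 0.00204, limma) and under all of 19 alternative settings. *Pde10a*, which hydrolyses cAMP and cGMP, had 401.6, 155.6 and 158.9 in *Otx2* CKO, against 69.4, 53.8 and 79.7 in control arrays, and *Pde3b* had 453.6, 110.2 and 176.3, against 79.3, 27.2 and 77.4. Both were highest in *Otx2* CKO replicate 1, the brightest array. *Pde10a* changed by 1.49 (adjusted p = 0.0143, limma) and was called in all 19 settings, whereas *Pde3b* (1.63, adjusted p = 0.0230, limma) lost its call without that array or without P12 control replicate 2. The number of higher genes was 3 without *Otx2* CKO replicate 1 and 9 without *Otx2* CKO replicate 2. It was 4 without P12 control replicate 2 or 3 or without *Otx2* CKO replicate 3, and 2 to 5 under the scalings. With the replicate block within each age it was 11, and 36.3% of all tested probe sets were called higher. The counts with that block are a description, since its fit gave very small p values.

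Other genes that ran most like each member over the 12 arrays were ranked by Pearson's r of log2 signals, among 18791 candidates. The arrays fall into 4 groups, so r mostly reads the differences between group means, and it is given as a description. *Pde6b* ran most like *Mpp4*, *Ankrd33* and *Kcnv2*, and *Pde6c* like *Mpp4*, *Opn1sw*, the short-wave cone opsin, and *Wdr31*. *Pde6g* ran most like *Pitpnm3*, *Abhd14b* and *Gngt1*, *Pde6a* like *Kcnj14*, *Plpp2* and *Vtn*, and *Pde6h* like *Klc3*, *Prcd* and *Ndrg1*. The genes nearest to *Pde6d* were *Desi1*, *Gpr180* and *Gpx4*. These r were 0.988 to 0.998. Between *Pde6d* and the other members r was 0.870 to 0.919, and among the other 7 probe sets it was 0.965 to 0.998.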

How the data were processed

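Total RNA of P1 and P12 retinas was labeled with the one-cycle cDNA and IVT kits and hybridized to Affymetrix Mouse Genome 430 2.0 arrays. The authors read the signal intensity of each probe set with GeneChip Operating Software 1.4, and these linear values are what was deposited; a scaling target is not given in the sources used here. Values were used as deposited. Free-text descriptions of all 6 *Otx2* CKO samples and of replicate 3 of both control groups name the other genotype; titles, source names and genotype fields agree and were followed.

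Tests excluded the 64 control probe sets. Symbols came from the platform annotation (34958 probe sets with 1 symbol, 932 with several, 9211 not named). limma 3.58.1 in R 4.3.3 (lmFit, eBayes with trend) was fitted to log2(signal + 16) of the 12 arrays with 4 groups, which adds the scatter of both ages, and was tested on simulated data. Log2 changes understate those of low signals. Same-numbered arrays of the 2 genotypes deviated together within an age (correlations of 0.173, 0.140 and 0.215 at P1, and of 0.823, 0.881 and 0.540 at P12), so the replicate number pairs the genotypes within an age. Between the ages, same-numbered *Otx2* CKO arrays had correlations of 0.614, 0.598 and -0.024. Those of control arrays were -0.018, -0.044 and -0.0060. The comparisons between ages took all arrays as independent. With the replicate number as a block within each age, 1552 probe sets were lower and 7757 higher at P12, against 971 and 3019 without it. In that blocked fit limma took the spread of a probe set almost wholly from the other probe sets, which gave very small p values. Its counts are therefore given as a description. The number of arrays limits the precision.

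Members and gene lists were chosen with earlier results of these data known. Lists were PDE6 folding, prenylation and transport, transducin, cGMP synthesis and channels, other phosphodiesterases, and rod, cone, bipolar, amacrine, Muller glia, microglia, pigment epithelium and lens markers, with 1 probe set for each gene (highest mean). Named are *Otx2*, all members, up to 4 genes of a list with the largest called change, those called against its majority, and the 3 genes most like each member. Alternatives were 5 scalings, offsets of 1 and 50, a floor of 20, no limit or a limit of 100, a limit on the mean of 12 arrays, replicate blocks, separate fits, no trend and leaving out each array; the block without a signal limit was chosen after seeing the data.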

Additional observations from a re-analysis of the deposited data

Results flagged for a closer look

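On log2(signal + 16), the effect of *Otx2* CKO was called different between the ages for 7 PDE6 probe sets, by limma's test of the difference itself. These 7 reached the signal limit at P12 alone, so the offset of 16 kept their P1 changes small in advance. Their calls are therefore a description. The log2 change at P12 minus that at P1 was -4.03 for *Pde6a*, -4.77 for *Pde6b*, -3.76 and -4.09 for the 2 probe sets of *Pde6g*, -2.40 for *Pde6c*, and -2.22 and -2.33 for those of *Pde6h*. With an offset of 1 in place of 16 the test called *Pde6a* and *Pde6g*, but neither *Pde6b* (-3.16, adjusted p = 0.129, limma), *Pde6c* (-1.04, adjusted p = 0.450, limma) nor *Pde6h* (-1.20 and -1.41, adjusted p = 0.323 and 0.265, limma).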

How the results depend on the processing

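The falls of *Pde6a*, *Pde6b*, *Pde6c*, *Pde6g* and *Pde6h* at P12 were called in each of 28 alternatives and that of *Pde6d* in 16; the count of lower probe sets at P12 was 7 to 8 without 1 array. The 8 increases with age in control were called in each of 26 alternatives. At P1 the count of lower members was 0 and became 1 under quantile normalization of the 12 arrays, and *Pde6d* turned to 0.0057 under that scaling, 0.0077 under quantile normalization within each age, 0.028 under median scaling, 0.024 under trimmed mean scaling and 0.11 under spike scaling; the cause was not tested. The count of members higher at P12 in *Otx2* CKO, 6 as deposited, was 2 under quantile normalization of the 12 arrays, median and spike scaling, where fewer members reached the signal limit, 3 with a signal limit of 100 and 3 to 6 without 1 array, with 3 without P12 *Otx2* CKO replicate 1; *Pde6d* turned to -0.036 in that comparison under median scaling. The count of members with a different effect at P12 and P1, 7, was 3 with an offset of 1 and 5 to 7 without 1 array. With the replicate number as a block over all arrays or within each age no member call changed, and the count at P12 was 8. With the signal limit, the block within each age gave very small p values, so its calls are a description. Without a signal limit and with the block within each age, *Pde6g* (1425100_a_at) at P1 had an adjusted p of 0.560 (limma). Signals under 50 at P1 limit what these arrays can show for 7 of the 8 probe sets.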
